A study of Homo sapiens with 8 samples.

Results

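The miR-15/16 family with miR-424 and miR-503 was followed across small RNA libraries of colorectal cancer cells. It was defined by name as 10 mature miRNAs of 4 genomic loci, MIR15A-MIR16-1, MIR15B-MIR16-2, MIR195-MIR497 and MIR424-MIR503, out of 1780 mature miRNAs in the count table, and all 10 were found there. DLD1 and HT29, both established human colorectal adenocarcinoma cell lines, were cultivated for 6 days either as a monolayer (2D) or as multicellular spheroids (MCS), cell aggregates that form when attachment is prevented. DLD1 cells were kept in RPMI-1640 and HT29 cells in DMEM. For 2D, 35000 DLD1 or 100000 HT29 cells were plated in a flask, and for MCS 7000 DLD1 or 3500 HT29 cells were placed in each agarose-coated well. Each cell line and culture had 2 libraries, labelled as biological replicates, 8 libraries in all. DLD1 libraries were made with version V3 of the small RNA kit and HT29 libraries with version V2, so that kit, medium and cell line cannot be told apart, and MCS was compared with 2D within each cell line.

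A miRNA guides a silencing complex to messenger RNAs, and the seed, the stretch of bases next to its 5′ end, largely decides which messages are bound. The miR-15/16 family is known for holding back the cell cycle at the transition from G1 to S phase through targets such as cyclins D and E and for lowering the anti-apoptotic protein BCL2. The MIR15A-MIR16-1 locus is deleted in many chronic lymphocytic leukemias, and miR-424 and miR-503, encoded on the X chromosome, are induced during differentiation in several cell types.

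The mature sequences show which members can bind like targets. They are given 5′ to 3′ as RefSeq lists them, with the seed (bases 2 to 8) in capitals. RefSeq sequences were matched for 10 of the 10 members and for 1557 of the 1780 miRNAs in the table. The first 6 share 1 seed, which 7 miRNAs of the table carry, the seventh being hsa-miR-6838-5p.
hsa-miR-15a-5p: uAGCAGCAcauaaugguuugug
hsa-miR-15b-5p: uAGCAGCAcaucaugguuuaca
hsa-miR-16-5p: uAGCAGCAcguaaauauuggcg
hsa-miR-195-5p: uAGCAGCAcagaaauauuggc
hsa-miR-497-5p: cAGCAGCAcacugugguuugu
hsa-miR-424-5p: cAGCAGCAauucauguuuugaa
hsa-miR-503-5p: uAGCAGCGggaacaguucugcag
hsa-miR-15b-3p: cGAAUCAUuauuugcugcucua
hsa-miR-16-2-3p: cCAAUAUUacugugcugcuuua
hsa-miR-424-3p: cAAAACGUgaggcgcugcuau

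Against hsa-miR-16-5p, counted from the 5′ end, the first 8 bases of hsa-miR-503-5p differ by A8G, so that its seed departs from that of the 6 at its last base. Hsa-miR-195-5p was identical to hsa-miR-16-5p at 19 of 21 positions, with the substitutions G10A and U11G. Hsa-miR-15a-5p and hsa-miR-15b-5p were identical at 18 of 22 positions. The 3 members from 3p arms, hsa-miR-15b-3p, hsa-miR-16-2-3p and hsa-miR-424-3p, carry 3 other seeds.

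Hairpin positions were found by matching the RefSeq hairpins to the GRCh37 genome. MIR15A lies at chr13:50623255-50623337 and MIR16-1 at chr13:50623109-50623197, both on the minus strand within the gene DLEU2 and 57 bases apart. MIR16-1 is intronic, and MIR15A overlaps an annotated DLEU2 exon. MIR15B at chr3:160122376-160122473 and MIR16-2 at chr3:160122533-160122613 lie on the plus strand within introns of SMC4, 59 bases apart. MIR195 at chr17:6920934-6921020 and MIR497 at chr17:6921230-6921341 lie on the minus strand inside an exon of the non-coding gene MIR497HG, 209 bases apart. MIR503 at chrX:133680358-133680428 and MIR424 at chrX:133680644-133680741 overlap exons of the non-coding gene MIR503HG on the minus strand.

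The same hsa-miR-16-5p comes from 2 hairpins on different chromosomes, so that its counts cannot be assigned to either locus. The 2 hairpins are shown with both mature arms in capitals, since they differ in the 3p arm, which does name the locus.
MIR16-1: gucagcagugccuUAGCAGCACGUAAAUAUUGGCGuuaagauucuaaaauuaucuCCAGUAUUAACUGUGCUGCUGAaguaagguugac
MIR16-2: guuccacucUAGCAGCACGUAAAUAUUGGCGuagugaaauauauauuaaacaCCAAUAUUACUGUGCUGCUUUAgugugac

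The values below are normalized counts-per-million (CPM), scaled with upper quartile factors so that the libraries of a cell line share an upper quartile. The libraries held 10495634 to 26211524 miRNA counts, and a count of 0 allows a level of up to 0.0689 to 0.547 normalized CPM depending on the library (3 counts, counting error only). Where the mean over the libraries of a cell line reached 10 unscaled CPM, a miRNA entered edgeR's quasi-likelihood test, and a call required a fold change of at least 1.5 with a Benjamini-Hochberg adjusted p under 0.05 over all miRNAs tested in that cell line. In DLD1, 346 miRNAs were tested, and 30.1% of them were up-regulated and 11.6% down-regulated in MCS (104 and 40 miRNAs). The split depended on the scaling, with 76 up and 63 down under TMM factors and 61 up and 89 down under library totals alone. In HT29, 301 miRNAs were tested, with 0% up-regulated and 0% down-regulated, while 13 had an unadjusted p under 0.05. There, edgeR's exact test called 5 and DESeq2 called 12 of the 301, none of which was a member. With the replicate number as a block, edgeR called 47 of the 301 in HT29, 33 up and 14 down, again without a member. The 0% therefore holds for the fit without a replicate term. The biological coefficient of variation was 0.193 in DLD1 and 0.521 in HT29. The 10 epithelial and intestinal marker miRNAs all reached 10 CPM in every library, summing to 74070 to 282800 unscaled CPM, and 8 of them were called up in DLD1 MCS. Of 12 markers of blood, stroma, endothelium, muscle and liver, 11 were in the table and 1 to 4 reached 10 CPM. Their summed level was 129.2 and 97.2 CPM in DLD1 2D, 148.9 in the lower of the DLD1 MCS libraries, 65.2 and 94.8 in HT29 2D and 156.9 and 287.5 in HT29 MCS, so that it was higher in MCS in both cell lines. Hsa-miR-214-3p was at 0 in 7 of the 8 libraries and hsa-miR-145-5p in 4. Hsa-miR-150-5p was at 0 in the 4 DLD1 libraries, but in HT29 at 6.29 and 11.3 CPM in 2D and 38.3 and 63.7 in MCS. Others were clearly present, with highest levels of 176.6 CPM for hsa-miR-142-3p, 94.0 for hsa-miR-126-3p and 90.9 for hsa-miR-1-3p. The part of these markers in the results below was not tested.

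In DLD1 cells 2 members were called, in opposite directions. Hsa-miR-503-5p fell from a mean of 118.4 normalized CPM in 2D to 58.6 in MCS, while its neighbour hsa-miR-424-5p did not pass the test. The low-abundance hsa-miR-195-5p was called up, a call kept in 3 of the 12 other settings that tested it. Its 2D libraries alone did not average 10 unscaled CPM. It entered the test only through its MCS libraries, so that its call carries little weight in the counts below. The 7 other members tested, among them all 5 of the 15/16 loci, did not pass the test. Of the 10 members, 9 entered the test and hsa-miR-497-5p did not. Of those 9, 1 was called up against 30.1% of all miRNAs tested and 1 down against 11.6%. The median log2 fold change of the 9 was -0.083, beside 0.23 over all 346 miRNAs tested. Both MCS libraries lay above both 2D libraries for 2 of the 9 members against 45.4% of all miRNAs tested, below them for 2 against 25.4%, and overlapped for the other 5, so that separation was seen in 4 of 9 against 70.8%. In bulk RNA a lower level in each cell and fewer cells that carry the miRNA cannot be told apart.

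**Figure D1:**
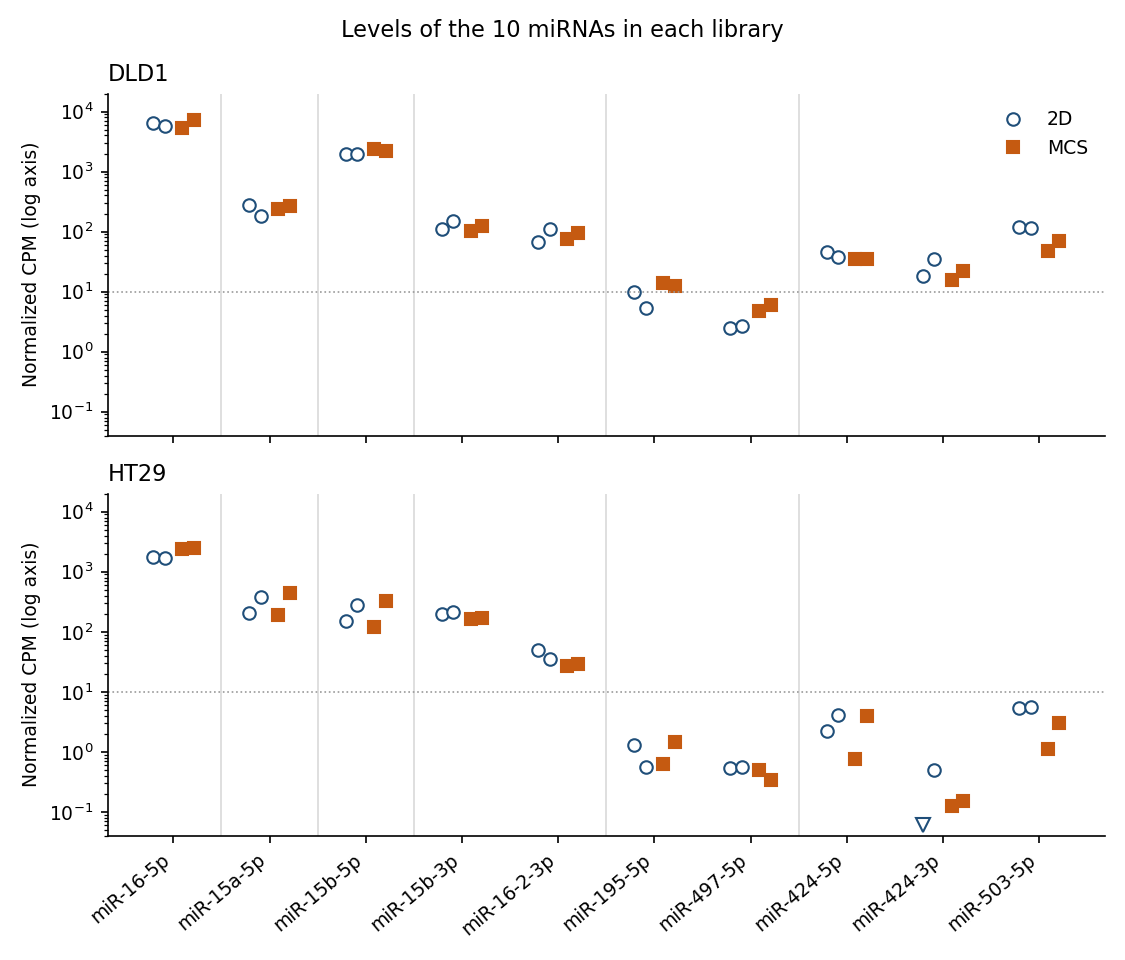
Normalized CPM (log axis) of the 10 miRNAs in the 8 libraries, DLD1 above and HT29 below, with open circles for 2D and filled squares for MCS, the 2 replicates side by side and a dotted line at 10 CPM. The DLD1 circles of miR-503-5p (121.2 and 115.7) sit above its squares (46.8 and 70.4), and miR-195-5p, miR-497-5p, miR-424-5p, miR-424-3p and miR-503-5p sit below 10 in every HT29 library, where the open triangle marks a count of 0.

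Hsa-miR-503-5p, a member known for acting with hsa-miR-424-5p on cell-cycle targets, was measured at 121.2 and 115.7 normalized CPM in the DLD1 2D libraries and at 46.8 and 70.4 in the MCS libraries. The groups did not overlap, and the 2D libraries lay close together. Its log2 fold change was -1.02 (SE 0.28, 95% confidence interval -1.57 to -0.48, edgeR quasi-likelihood adjusted p = 0.00101). It was called under 13 of the 14 other settings, at log2 fold changes from -1.49 to -0.92, and not when the libraries of both cell lines were fitted together (-1.05, adjusted p = 0.193).

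The other members from this locus did not pass the test. Hsa-miR-424-5p, the arm that carries the shared seed, was at 45.2 and 37.8 normalized CPM in 2D and at 35.0 and 34.9 in MCS. Both MCS libraries lay below 2D, but the log2 fold change of -0.24 (SE 0.30, edgeR adjusted p = 0.531) did not pass the test, with a 95% interval from -0.83 to 0.36. Hsa-miR-424-3p, from the opposite arm of the same hairpin, was at 17.9 and 35.5 in 2D and at 15.8 and 22.4 in MCS. The groups overlapped, and the log2 fold change was -0.55 (SE 0.32, edgeR adjusted p = 0.148). It passed in edgeR when library totals were used without factors (-0.94, adjusted p = 0.0282). It also passed there when the upper quartile was taken over the tested miRNAs only (-0.99, adjusted p = 0.0426). Without replicate 1 of 2D the log2 fold change was -1.04.

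Both miRNAs are counted in the same library, so that their ratio does not depend on the scaling. The count of hsa-miR-503-5p was 2.68 and 3.06 times that of hsa-miR-424-5p in DLD1 2D and 1.34 and 2.02 times in MCS. The MCS ratios lay below both 2D ratios, although an exact permutation test of 2 libraries against 2 cannot give a two-sided p below 0.333. Such separation was common in DLD1, where 59.5% of 84 ratios of the 5p to the 3p arm of a hairpin had both MCS libraries on one side. The ratio also uses the same hsa-miR-503-5p counts as the call above, so that it is no separate evidence. Further hairpins of the same X-chromosomal cluster were listed too. Of 7 listed miRNAs from the MIR450 and MIR542 hairpins, which begin 4890 bases from MIR503, 3 were tested in DLD1, and 1 of them, hsa-miR-450b-5p, was down-regulated, against 11.6% of all miRNAs tested. It went from 236.2 and 207.8 normalized CPM in 2D to 98.5 and 181.3 in MCS, a log2 fold change of -0.67 (SE 0.25, edgeR adjusted p = 0.0189). It was called in 10 of 14 other settings. With the replicate number as a block it was not called (-0.73, edgeR adjusted p = 0.0802), and without replicate 1 of MCS the log2 fold change was -0.46 (edgeR adjusted p = 0.150). Hsa-miR-542-3p and hsa-miR-450a-5p had log2 fold changes of -0.083 and -0.064 and were not called.

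The MIR195-MIR497 locus, known for low expression in many colorectal tumors, stood close to the minimum level for the test in DLD1. Hsa-miR-195-5p was at 9.75 and 5.28 normalized CPM in 2D and at 14.1 and 12.5 in MCS. The groups did not overlap, and it was called up with a log2 fold change of 0.92 (SE 0.36, 95% confidence interval 0.22 to 1.61, edgeR adjusted p = 0.0251). The 2D replicates differed by more than the nearest 2D and MCS libraries did in level, and without replicate 2 of 2D the log2 fold change was 0.34 (adjusted p = 0.620). Its unscaled mean of 10.2 CPM lay just above the minimum of 10, and without replicate 1 of MCS it was not tested. The 2D libraries alone did not average 10 CPM, so that the MCS libraries brought hsa-miR-195-5p into the test. As an unscaled share of the library it accounted for 0.00108% and 0.000616% of the counts in the 2D libraries and for 0.00146% and 0.000933% in those of MCS, so that the cultures overlapped before scaling. It was called in 3 of the 12 other settings that tested it. Hsa-miR-497-5p, its partner in the same transcript, was at 2.51 and 2.69 in 2D and at 4.81 and 6.09 in MCS, from 44, 80, 90 and 93 counts. Both MCS libraries were higher, as for hsa-miR-195-5p, but the level was below the minimum for the test. With no minimum the log2 fold change was 1.04 (SE 0.46, edgeR adjusted p = 0.221).

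The 15/16 loci supplied most of the family counts, and none of their members passed the test in DLD1. Hsa-miR-16-5p, the most abundant member in every library, was at 6411 and 5669 normalized CPM in 2D and at 5266 and 7168 in MCS. Its MCS libraries lay on either side of both 2D libraries, with a log2 fold change of 0.042 (SE 0.25, 95% confidence interval -0.45 to 0.53, edgeR adjusted p = 0.897). As an unscaled share of the library it made up 0.711% and 0.662% in 2D and 0.545% and 0.535% in MCS, lower in both MCS libraries. The order of cultures for hsa-miR-16-5p therefore depended on the scaling, from 0.042 here to -0.43 when the upper quartile was taken over the tested miRNAs only.

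Hsa-miR-15b-5p, the second most abundant member in DLD1, was at 1947 and 1979 normalized CPM in DLD1 2D and at 2338 and 2178 in MCS. Both MCS libraries lay above 2D, but the log2 fold change of 0.20 (SE 0.23, edgeR adjusted p = 0.490) did not pass the test. Hsa-miR-15a-5p was at 275.4 and 180.2 in 2D and at 237.1 and 270.2 in MCS, a log2 fold change of 0.16 (SE 0.24, adjusted p = 0.589) with overlapping groups. The 3p arms of the MIR15B-MIR16-2 locus also overlapped. Hsa-miR-15b-3p was at 109.6 and 152.6 in 2D and 101.9 and 125.2 in MCS (log2 fold change -0.22, SE 0.26, edgeR adjusted p = 0.501). It passed in edgeR when library totals were used without factors (-0.60, adjusted p = 0.0451). The same held when the upper quartile was taken over the tested miRNAs only (-0.67, edgeR adjusted p = 0.0370). Hsa-miR-16-2-3p was at 68.3 and 111.3 in 2D and 75.8 and 96.3 in MCS (log2 fold change -0.083, SE 0.27, edgeR adjusted p = 0.816).

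**Figure D2:**
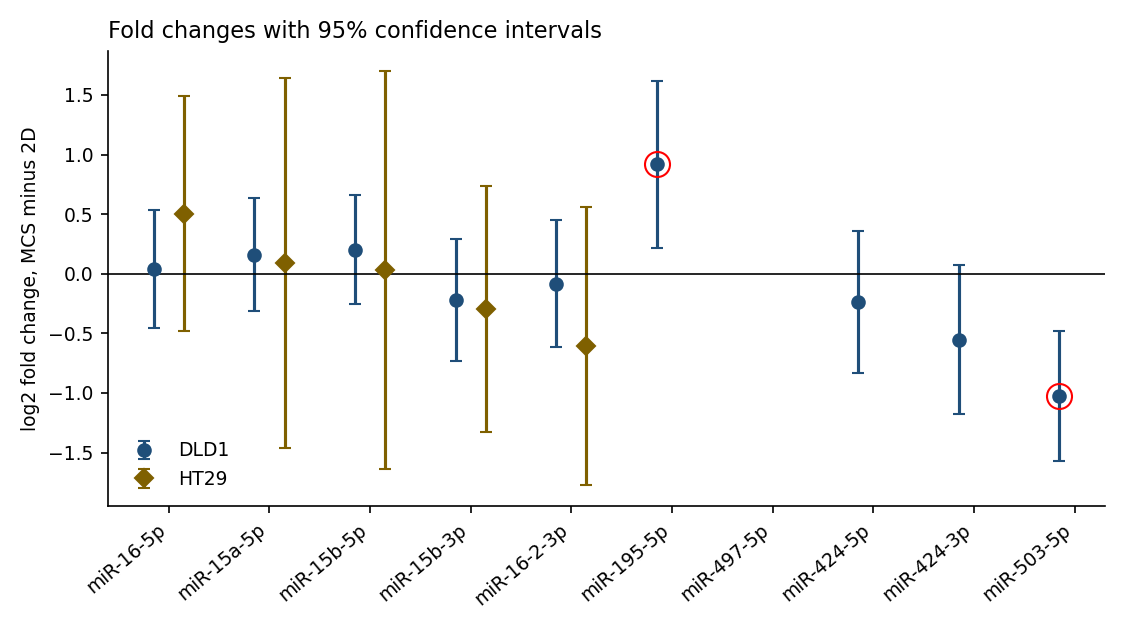
Log2 fold change of MCS over 2D with its 95% confidence interval for the members tested, circles for DLD1 (9 members) and diamonds for HT29 (5 members), with a red ring around those called. The intervals of miR-195-5p and miR-503-5p in DLD1 lie on one side of 0, all others cross it, and the HT29 intervals are wider.

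The choice of scaling moved all DLD1 fold changes together. Against the upper quartile over all counted miRNAs, the median over all tested miRNAs shifted by -0.12 on the log2 scale under RLE factors, -0.20 under TMM factors, -0.37 under library totals alone and -0.45 under the upper quartile of the tested miRNAs. Hsa-miR-16-5p was negative under all 4 of these, hsa-miR-15a-5p under all but RLE and hsa-miR-15b-5p under library totals and the upper quartile of the tested miRNAs, so that no direction is given for these 3. Hsa-miR-503-5p stayed below 0 and hsa-miR-195-5p above 0 under all 5 scalings.

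**Figure D3:**
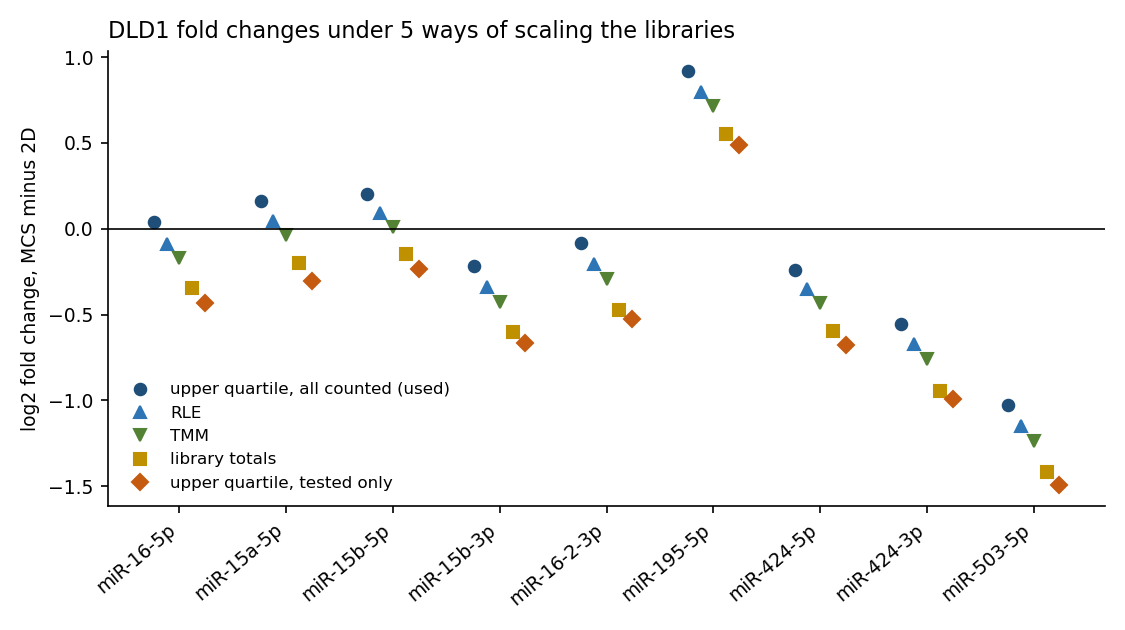
Log2 fold changes of MCS over 2D in DLD1 for the 9 members tested, each point 1 way of scaling the libraries. The points of each miRNA shift down together from the upper quartile over all counted miRNAs to that over the tested ones, those of miR-16-5p from 0.042 to -0.43 and those of miR-503-5p from -1.02 to -1.49.

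In HT29 cells the same loci were sampled at other levels, and no member was called. Only 5 of the 10 members reached 10 CPM, all of them from the 15/16 loci. For these 5, 0 calls were made by the edgeR quasi-likelihood test, by edgeR's exact test and by DESeq2, and 0 had an unadjusted p under 0.05 in the quasi-likelihood test, the smallest being 0.235. The median log2 fold change of the 5 was 0.028, beside 0.029 over all 301 miRNAs tested. Both MCS libraries lay above both 2D libraries for 1 of them against 17.9% of all miRNAs tested, below for 2 against 10.6%, and on one side for 3 against 28.6%.

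Hsa-miR-16-5p was at 1769 and 1685 normalized CPM in HT29 2D and at 2430 and 2470 in MCS. Both MCS libraries were higher than both 2D libraries, with a log2 fold change of 0.50 (SE 0.38, 95% confidence interval -0.48 to 1.49, edgeR adjusted p = 0.978). The share of the library was 0.0924% and 0.280% in 2D and 0.180% and 0.384% in MCS, so that before scaling the cultures overlapped and replicates 1 and 2 of 2D differed more than the cultures did. Hsa-miR-15b-3p, at 200.8 and 212.6 in 2D and 165.9 and 170.8 in MCS, was lower in both MCS libraries (log2 fold change -0.30, SE 0.40, edgeR adjusted p = 0.978). Hsa-miR-16-2-3p, at 49.1 and 35.7 in 2D and 26.9 and 28.7 in MCS, was also lower in both (log2 fold change -0.61, SE 0.45, edgeR adjusted p = 0.978). As unscaled shares of the library, hsa-miR-15b-3p and hsa-miR-16-2-3p overlapped between the cultures too.

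The 2 remaining members tested in HT29 followed the replicate number rather than the culture. Hsa-miR-15a-5p was at 207.0 and 382.9 normalized CPM in 2D and at 191.3 and 435.9 in MCS, and hsa-miR-15b-5p at 153.8 and 280.2 in 2D and at 121.0 and 321.4 in MCS. In both cultures replicate 2 was the higher library, and MCS and 2D overlapped. The log2 fold changes were 0.088 (SE 0.60) for hsa-miR-15a-5p and 0.028 (SE 0.64) for hsa-miR-15b-5p, with edgeR adjusted p of 0.978 and 0.989. Their 95% intervals, -1.46 to 1.64 and -1.64 to 1.70, include changes of more than 2-fold in either direction. These come from the fit without a replicate term. With the replicate number as a block, the log2 fold changes were 0.039 (SE 0.319) and -0.068 (SE 0.315), and neither was called.

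The loci of miR-424, miR-503, miR-195 and miR-497 were at low levels in HT29. Hsa-miR-503-5p was at 5.29 and 5.56 normalized CPM in 2D and at 1.13 and 3.03 in MCS, from 29, 242, 9 and 81 counts. Both MCS libraries were lower after scaling, as in DLD1. As an unscaled share of the library the HT29 cultures overlapped, at 0.000276% and 0.000923% in 2D and 8.38e-05% and 0.000471% in MCS. With no minimum level the log2 fold change of hsa-miR-503-5p was -1.36 (SE 0.67, edgeR adjusted p = 0.905), which did not pass the test. Hsa-miR-424-5p was at 2.19 and 4.11 in 2D and 0.753 in replicate 1 of MCS with replicate 2 between the 2D libraries, and hsa-miR-424-3p had 0 counts in replicate 1 of 2D and at most 0.506 normalized CPM elsewhere. Hsa-miR-195-5p, at 1.28 and 0.551 in 2D and 0.628 and 1.46 in MCS, overlapped. Hsa-miR-497-5p was at 0.547 and 0.551 in 2D and 0.502 and 0.337 in MCS, from 3, 24, 4 and 9 counts. With no minimum level none of these 4 passed the edgeR test (adjusted p from 0.905 to 0.976).

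An interaction term, fitted to the 8 libraries together, tested whether the response to MCS differed between DLD1 and HT29. Of 250 miRNAs tested in both cell lines 0% were called by the edgeR quasi-likelihood test, while 25 had an unadjusted p under 0.05 and DESeq2 called 21. All 5 members tested in both were among the 250, and 0 were called by either tool, with edgeR adjusted p from 0.740 to 0.985. The difference of the largest size, HT29 minus DLD1, was -0.55 (SE 0.52) for hsa-miR-16-2-3p. The difference for hsa-miR-503-5p, hsa-miR-424-5p and hsa-miR-195-5p was not tested, because HT29 lay below the minimum level.

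Ratios within a library, which need no scaling, were computed for 13 pairs of miRNAs in each cell line, except that of the miR-424 arms in replicate 1 of HT29 2D, where hsa-miR-424-3p had 0 counts. In DLD1, 1 ratio was higher in both MCS libraries and 3 were lower, and in HT29 2 were higher and 0 lower. No share over all pairs of miRNAs was computed. Of the 5p to 3p ratios of hairpins, 59.5% in DLD1 and 17.3% in HT29 had both MCS libraries on one side. The ratio of hsa-miR-16-5p to hsa-miR-503-5p was 52.9 and 49.0 in DLD1 2D and 112.6 and 101.9 in MCS, and in HT29 it was 334.5 and 303.1 in 2D and 2151 and 814.9 in MCS. It was the 1 ratio of the 13 that stood higher in MCS in both cell lines. In DLD1 it uses the same hsa-miR-503-5p counts as the call above, and in HT29 it rests on 9 and 81 counts of hsa-miR-503-5p in MCS. The ratio of hsa-miR-16-5p to hsa-miR-195-5p went the other way in DLD1, from 865.8 ± 294.4 in 2D to 473.0 ± 141.1 in MCS (SD, n = 2). It uses the same hsa-miR-195-5p counts as the call of that miRNA and is no separate evidence for it.

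Arms of the same hairpin were set against each other in the same way. In DLD1 the ratio of hsa-miR-15b-5p to hsa-miR-15b-3p was 15.4 ± 3.39 in 2D and 20.2 ± 3.93 in MCS, and that of hsa-miR-424-5p to hsa-miR-424-3p was 1.79 ± 1.03 and 1.89 ± 0.470 (SD, n = 2). Both overlapped between the cultures, whereas 59.5% of the 84 hairpins with both arms tested in DLD1 did not. In HT29 the 15b ratio was 1.04 ± 0.391 in 2D and 1.31 ± 0.815 in MCS and overlapped too, where 17.3% of 75 hairpins did not. The ratio of hsa-miR-16-5p to hsa-miR-16-2-3p is not one of arms of 1 hairpin, since the counts of hsa-miR-16-5p come from 2 hairpins. It was 36.1 and 47.2 in HT29 2D and 90.5 and 86.1 in MCS, higher in both MCS libraries. In the DLD1 libraries it was 93.9, 50.9, 69.5 and 74.4, where the cultures overlapped. For the 3p arms that name the 2 hairpins of hsa-miR-16-5p, the count of hsa-miR-16-2-3p was 12.1 ± 4.08 times that of hsa-miR-16-1-3p in DLD1 2D and 12.8 ± 0.962 times in MCS, against 3.76 ± 1.60 and 5.93 ± 3.73 times in HT29 (SD, n = 2).

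**Figure D4:**
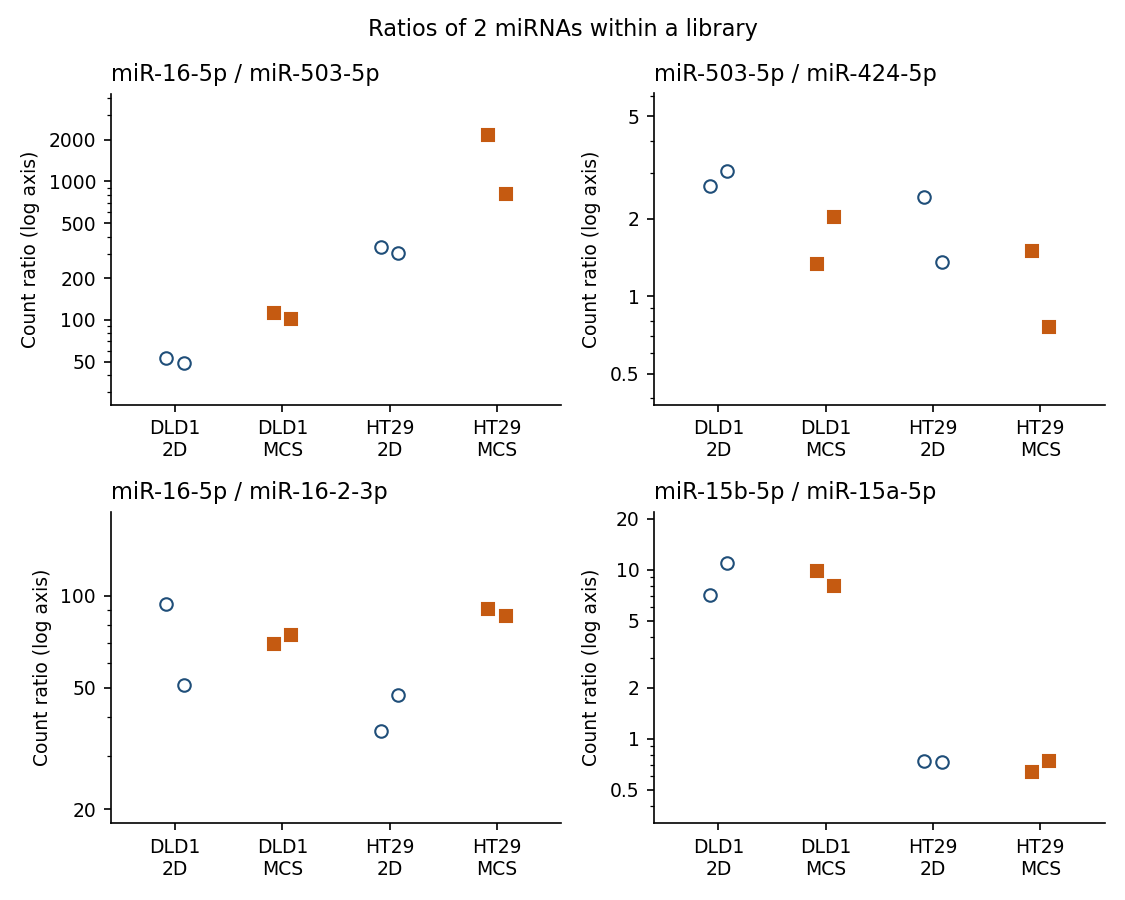
Ratio of the counts of 2 miRNAs within a library (log axes) for 4 pairs, by cell line and culture, open circles for 2D and filled squares for MCS with the 2 replicates side by side. The miR-16-5p to miR-503-5p ratio is higher in MCS in both cell lines, and the miR-15b-5p to miR-15a-5p ratio separates the cell lines but not the cultures.

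The make-up of the family is given by cell line, where kit and cell line cannot be told apart and the libraries of each cell line were scaled on their own. The 7 miRNAs that share the seed summed to 8691 and 7875 normalized CPM in DLD1 2D, 7896 and 9670 in DLD1 MCS, 2134 and 2354 in HT29 2D and 2744 and 3233 in HT29 MCS. Hsa-miR-16-5p held 66.7% to 74.1% of their counts in DLD1 and 71.6% to 88.6% in HT29. Hsa-miR-15b-5p came next in DLD1 with 22.4% to 29.6%, and hsa-miR-15a-5p in HT29 with 6.97% to 16.3%. The ratio of hsa-miR-15b-5p to hsa-miR-15a-5p was 9.03 ± 2.76 in DLD1 2D and 8.96 ± 1.27 in MCS, and 0.737 ± 0.00771 in HT29 2D and 0.685 ± 0.0742 in MCS (SD, n = 2). In the order of levels, hsa-miR-16-5p stood first in all 8 libraries, hsa-miR-15b-5p second in every DLD1 library and hsa-miR-15a-5p second in every HT29 library. In DLD1, hsa-miR-503-5p held place 4 or 5 among the members in 2D and place 6 in MCS, where hsa-miR-15b-3p and hsa-miR-16-2-3p stood above it.

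**Figure D5:**
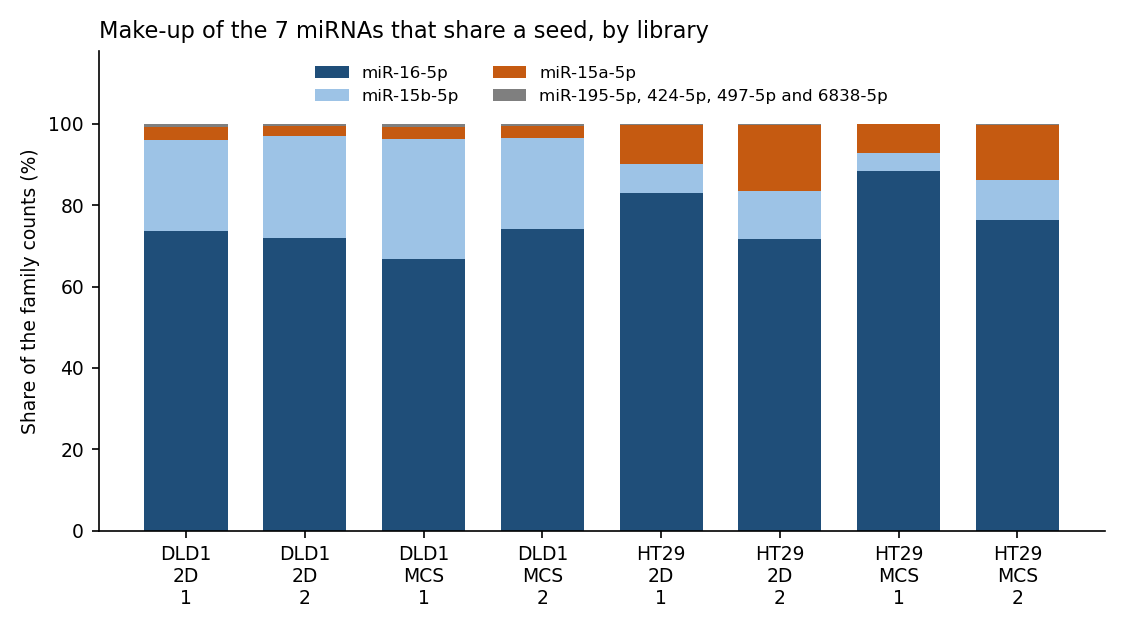
Share (%) of the counts of the 7 miRNAs with the seed of miR-16-5p held by miR-16-5p, miR-15b-5p, miR-15a-5p and the 4 others, stacked for each library. MiR-16-5p takes 66.7% to 88.6%, miR-15b-5p is second in the DLD1 bars and miR-15a-5p in the HT29 bars.

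How reads were divided among close relatives limits the members singly. Hsa-miR-15a-5p and hsa-miR-15b-5p match over 19 bases with 1 mismatch, and hsa-miR-195-5p and hsa-miR-16-2-3p match over 19 bases with 1 mismatch on opposite strands, so that reads of 1 could be counted on the other. On the same strand, hsa-miR-195-5p is identical to hsa-miR-16-5p at 19 of 21 positions. Hsa-miR-16-5p held 373.3 to 1074 times its counts in the DLD1 libraries. Hsa-miR-103b, chosen after its values were seen, is the reverse complement of hsa-miR-103a-3p and held 1.05 to 1.06 times its counts in each library. Of the 19 pairs of listed miRNAs that shared at least 20 bases on opposite strands and in which at least 1 of the pair had 1000 counts or more over all libraries, 3 had totals within 1.2-fold of each other, and the median ratio of the higher to the lower total was 9.91. Whether the counting used strand is not given in the sources used here. The ratio of hsa-miR-16-2-3p to hsa-miR-195-5p was 14.0 ± 9.95 in DLD1 2D and 6.54 ± 1.64 in MCS (SD, n = 2). The part of shared reads in the call of hsa-miR-195-5p was not tested.

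The miRNAs with the most similar pattern were sought over the 8 libraries by Pearson's r of log2 normalized CPM centred within each cell line, among 249 or 250 miRNAs tested in both cell lines. The points share libraries, kit and scaling, and the values are a description. Hsa-miR-16-5p was most like hsa-miR-24-3p (0.90), hsa-miR-324-5p (0.86) and hsa-miR-181d-5p (0.84). Hsa-miR-15b-5p was most like hsa-miR-339-5p (0.98), hsa-miR-140-5p (0.95) and hsa-let-7i-3p (0.94), and hsa-miR-424-5p most like hsa-miR-93-3p (0.99), hsa-miR-17-5p (0.92) and hsa-miR-4521 (0.91). Among the members, hsa-miR-15b-5p had an r of 0.90 with hsa-miR-15a-5p and 0.87 with hsa-miR-424-5p, but 0.058 with its own opposite arm hsa-miR-15b-3p and -0.096 with hsa-miR-16-5p, whose second hairpin lies next to its own.

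Other miRNAs with roles near those of the family were counted from lists. Of 17 other miRNAs known for restraining the cell cycle, such as the let-7 and miR-34 groups, 12 were tested in DLD1, and 6 were up-regulated, against 30.1% of all miRNAs tested, and 0 down-regulated, against 11.6%, with a median log2 fold change of 0.59, and in HT29 0 of 11 were called by the edgeR quasi-likelihood test. Of 11 known for promoting it, such as the miR-17 group and miR-221, 1 was up and 2 were down in DLD1, against the same 30.1% and 11.6% (median log2 fold change 0.070), and 0 of 11 were called in HT29. Of the miRNAs whose seed is shifted by 1 base from that of the family, hsa-miR-107 was up-regulated in DLD1 from 421.7 and 387.4 normalized CPM in 2D to 630.0 and 611.2 in MCS (log2 fold change 0.62, SE 0.23, edgeR adjusted p = 0.0187), a call that was kept in 3 of 14 other settings, with values of 0.18 to 0.62, and lost under each other scaling of the libraries. Hsa-miR-103a-3p was not called (0.21). Of the 5 opposite arms outside the family list, 0 were tested in DLD1. Hsa-miR-16-1-3p, the 1 tested in HT29, had a log2 fold change of -0.98 (SE 0.59, edgeR adjusted p = 0.969), and was at -1.94 without replicate 2 of MCS and at -0.46 without replicate 1 of MCS, not called in either. Hsa-miR-6838-5p, the seventh miRNA with the shared seed, had at most 7 counts in a library and was not tested.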

How the data were processed

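Small RNA of DLD1 and HT29 cells in 2D or MCS was sequenced, with 2 libraries for each cell line and culture. The authors trimmed reads with Cutadapt, aligned them to GRCh37 with Bowtie2, and identified mature miRNAs by alignment to miRBase. The deposited values are raw counts of reads for each mature miRNA and library, neither normalized nor pooled. The submitters' processing notes name cutadapt 1.11, Bowtie2 2.1.0 and edgeR 3.4.2. How reads that match several miRNAs were counted is not given in the sources used here. The single-library counts and the joint table were compared over 14360 values, of which 0 differed. Another 15 entries that name no miRNA (at most 0.00988% of a library) were left out.

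Counts were analysed with edgeR 4.0.16 in R 4.3.3 (glmQLFit with the current, non-legacy dispersion method) using upper quartile factors over the miRNAs counted at least once in that cell line, a minimum mean of 10 CPM, no replicate term, and calls at a fold change of 1.5 and an adjusted p under 0.05. Normalized CPM are counts over the effective library size (total times factor). Precision is limited by 2 replicates for each group. In DLD1 the fit pooled the spread over all tested miRNAs, so that a p-value there does not reflect a miRNA's own replicates. In HT29 the spread of each miRNA was drawn part of the way to the pooled one. The interaction used all 8 libraries. The fits were tested on simulated data. Alternatives were TMM and RLE factors, library totals, an upper quartile over tested miRNAs, the exact test, DESeq2 1.42.0, 10 CPM in every library, no minimum, the replicate number as a block, all libraries in 1 fit, the unadjusted p-value, no fold threshold and each library left out. Hairpins and mature miRNAs came from RefSeq and host genes from GENCODE lifted to GRCh37. All 10 members were named, their listed relatives were given by counts and, where tested, values, and other lists by counts, together with the 3 miRNAs most like hsa-miR-16-5p, hsa-miR-15b-5p and hsa-miR-424-5p. The members and lists were chosen with earlier results of these data known. Other steps used Python 3.11.15 with pandas 2.3.3 and matplotlib 3.10.9.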

Additional observations from a re-analysis of the deposited data

Results flagged for a closer look

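Hsa-miR-497-5p stood out because both MCS libraries lay above both 2D libraries in DLD1 and below them in HT29. With no minimum level, the log2 fold changes were 1.04 in DLD1 and -0.43 in HT29, a difference of -1.47. The difference was not tested, and the HT29 libraries held 3, 24, 4 and 9 counts. As unscaled shares of the library, the HT29 cultures overlapped.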

How the results depend on the processing

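Of 124 member values recomputed in DLD1, 91 kept their direction and side of the threshold, 10 lost the call, 5 gained one and 18 changed sign, and of 70 in HT29 57 kept both and 13 changed sign. The 2 members called in DLD1 became 1 under TMM, RLE, DESeq2, 10 CPM in every library and no minimum, 0 with all libraries in 1 fit, and 1 to 3 with each library left out. Where 1 remained it was hsa-miR-503-5p, and the call of hsa-miR-195-5p was lost in each of these settings that tested it, except without replicate 1 of 2D. Library totals and the upper quartile of tested miRNAs called 3 members, hsa-miR-503-5p, hsa-miR-424-3p and hsa-miR-15b-3p, and without replicate 1 of 2D hsa-miR-424-3p was called as well (-1.04). With 10 CPM in every library and without replicate 1 of MCS, hsa-miR-195-5p was not tested. In DLD1, hsa-miR-16-5p was at -0.17 under TMM, -0.087 under RLE, -0.35 under library totals, -0.43 under the upper quartile of tested miRNAs, -0.20 in DESeq2 and -0.26 to 0.080 with a library left out. Hsa-miR-15a-5p was at -0.035, -0.20, -0.30 and -0.074 under TMM, totals, that upper quartile and DESeq2 and -0.24 to 0.36 with a library left out. Hsa-miR-15b-5p was at -0.14, -0.23 and -0.024 under totals, that upper quartile and DESeq2 and -0.020 to 0.19, and hsa-miR-16-2-3p at -0.50 to 0.21, with a library left out. In HT29, hsa-miR-15a-5p was at -0.029, -0.22 and -0.050 under TMM, that upper quartile and DESeq2 and -0.65 to 0.54 with a library left out, and hsa-miR-15b-5p at -0.081, -0.020, -0.29, -0.11 and -0.029 under TMM, RLE, that upper quartile, DESeq2 and all libraries in 1 fit, and -0.87 to 0.55. Among the relatives named, hsa-miR-103a-3p in DLD1 was at -0.0043, -0.19, -0.27 and -0.040 under TMM, totals, that upper quartile and DESeq2 and -0.16 to 0.30 with a library left out, hsa-miR-542-3p there at -0.48 to 0.029 with a library left out, and hsa-miR-107 in HT29 at -0.035 under that upper quartile and -0.52 to 1.05 with a library left out, while hsa-miR-16-1-3p in HT29 ranged from -1.94 without replicate 2 of MCS to -0.46 without replicate 1 of MCS. The scalings shift all miRNAs together, and the cause of the other sign changes was not tested. With 1 library left in a group, that library is assumed to vary like the others.

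Across the tested miRNAs, the deviations of same-numbered libraries from their group means had a correlation of 0.321 in DLD1 and 0.789 in HT29. Each cell line holds only 2 such pairs of libraries, too few to take the numbers as pairs. With the replicate block, 139 miRNAs were called in DLD1 and 47 in HT29 in place of 144 and 0, members called stayed at 2 in DLD1 and 0 in HT29, and hsa-miR-15b-5p in HT29 was at -0.068, while hsa-miR-450b-5p in DLD1 lost its call (-0.73, adjusted p = 0.0802). In the interaction the block gave 40 calls, none of a member. In HT29, hsa-miR-424-3p and hsa-miR-497-5p had as few as 0 and 3 counts in a library.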
